A study of Triticum aestivum with 20 samples.

Results

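Early anther transcripts that were high up to an anther length of 2.0 mm and low from 2.2 mm onward at the permissive temperature were examined in the wheat temperature-sensitive genic male sterile (TGMS) line BS366, which sets fertile pollen in the warm and is male sterile after a cold treatment. Each array of the Affymetrix Wheat Genome type reports the transcripts of an anther sample by probe sets, groups of short probes designed to 1 transcript sequence. A probe set was chosen by its deposited log2 values in the 10 control arrays: it had to reach 9 or more in each of the 4 arrays of 1.5 and 2.0 mm anthers, and to lie at least 2 below the mean of those 4 in each of the 6 arrays of 2.2, 2.5 and 3.0 mm anthers. Probe sets of 4 ID groups, 56 in number, were left out beforehand, and none of them met the rule. Of 28894 probe sets, 4340 met the level in early control anthers, and 3 of these also met the fall: Ta.204.1.S1_at, Ta.9458.1.S1_at and Ta.9458.2.S1_x_at. The 3 members came from 2 ID stems, the part of the ID shared by sequences of 1 cluster, so the Ta.9458 probe sets were not independent measurements.

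The 20 arrays covered 5 anther lengths in BS366 plants that had been vernalized in the field, held for 5 days at 10 °C (cold) or 20 °C (control), each with 12 h or 14 h of light, and then grown on at 20 °C with 12 h of light. Conditions were named A (10 °C, 12 h), B (10 °C, 14 h), E (20 °C, 12 h) and F (20 °C, 14 h), with 1 array for each condition and anther length. The 2 arrays of a temperature and length thus differed in photoperiod, and no label gave a separate culture or plant for a repeat of the same condition, so the SD given here holds photoperiod, plant and array together. All plants were of 1 line, no fertile line was hybridized alongside, and whole anthers were used. Anthers were staged by length, so a direct effect of cold on a transcript and anther contents that lagged behind length cannot be told apart. Fewer cells of a type and less RNA per cell cannot be told apart either.

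A young wheat anther holds meiocytes that divide to form microspores, and around them the tapetum, a nutritive cell layer that supplies the wall of the growing pollen. Transcripts of the dividing anther are known to be lost as meiosis ends and the microspores and tapetum take up their own programmes. Bread wheat carries 3 related subgenomes, so a probe set can read several near-identical gene copies. In the array's naming, a probe set ending in _x_at holds probes that may also bind other transcripts, which leaves the copy measured by Ta.9458.2.S1_x_at uncertain.

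Ta.204.1.S1_at was annotated to LOC542836 (source transcript AF104108), a protein-coding gene for which the annotation used here gave a locus number and no name. Neither Ta.9458.1.S1_at nor Ta.9458.2.S1_x_at carried a gene symbol, so no role is stated for any of the 3. Ta.9458 had 3 further probe sets among the deposited values, Ta.9458.1.S1_x_at, Ta.9458.2.S1_at and Ta.9458.3.S1_x_at, which missed the rule.

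In the control anthers Ta.204.1.S1_at had the deepest loss. Its log2 value was 12.59 (E) and 12.80 (F) at 1.5 mm, 12.11 and 11.26 at 2.0 mm, 10.12 and 9.17 at 2.2 mm, 8.52 and 5.15 at 2.5 mm, and 7.53 and 8.03 at 3.0 mm. The 4 early arrays thus lay above the 6 late ones with no overlap, as the rule required, and the 2 arrays of 2.5 mm were the farthest apart (SD 2.38, n = 2). The mean at 3.0 mm lay 4.41 below the early mean, a 21.3-fold lower level.

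In the cold the same probe set stayed near its early level at 2.2 mm and in the A array of 2.5 mm. The B array of 2.5 mm lay 1.37 below the early cold mean. The values were 13.00 (A) and 12.83 (B) at 1.5 mm, 12.44 and 12.15 at 2.0 mm, 12.53 and 12.12 at 2.2 mm, 12.62 and 11.23 at 2.5 mm, and 11.69 and 11.19 at 3.0 mm. The lowest of these 10 cold values, 11.19, was above the highest late control value, 10.12. The rule had held the late control values low, and the share of all probe sets with such a gap was not counted. At 3.0 mm the cold mean lay 1.16 below the early cold mean, a 2.24-fold lower level and 26.4% of the log2 fall in control anthers of the same length.

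Ta.9458.1.S1_at showed a smaller control loss that was deepest at 2.5 mm. In control anthers it measured 9.76 (E) and 11.05 (F) at 1.5 mm, 10.45 and 9.30 at 2.0 mm, 8.05 and 7.43 at 2.2 mm, 6.95 and 6.68 at 2.5 mm, and 8.05 and 7.68 at 3.0 mm. Between 1.5 and 2.0 mm the photoperiods went opposite ways, with E 0.69 higher and F 1.75 lower at 2.0 mm, a single array each. In the cold it measured 10.47 (A) and 10.75 (B) at 1.5 mm, 10.54 and 9.94 at 2.0 mm, 10.60 and 9.95 at 2.2 mm, 10.32 and 8.84 at 2.5 mm, and 9.16 and 9.04 at 3.0 mm. All 6 late cold arrays were above all 6 late control arrays, and both 3.0 mm cold arrays were below the 4 early cold arrays. Again the rule had held the late control values low, and shares over all probe sets were not counted.

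Ta.9458.2.S1_x_at repeated this course at a narrower range. Its control values were 10.28 (E) and 10.99 (F) at 1.5 mm, 10.86 and 10.07 at 2.0 mm, 8.52 and 8.42 at 2.2 mm, 7.46 and 8.53 at 2.5 mm, and 8.24 and 8.26 at 3.0 mm. Its cold values were 11.16 (A) and 11.03 (B) at 1.5 mm, 11.12 and 10.66 at 2.0 mm, 11.30 and 10.58 at 2.2 mm, 10.97 and 9.56 at 2.5 mm, and 9.97 and 9.71 at 3.0 mm. The 2.2 and 2.5 mm cold groups overlapped the early groups, whereas both 3.0 mm cold arrays were under every early value and above every late control value. Here too the late control values were held low by the rule, and shares over all probe sets were not counted.

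**Figure D1:**
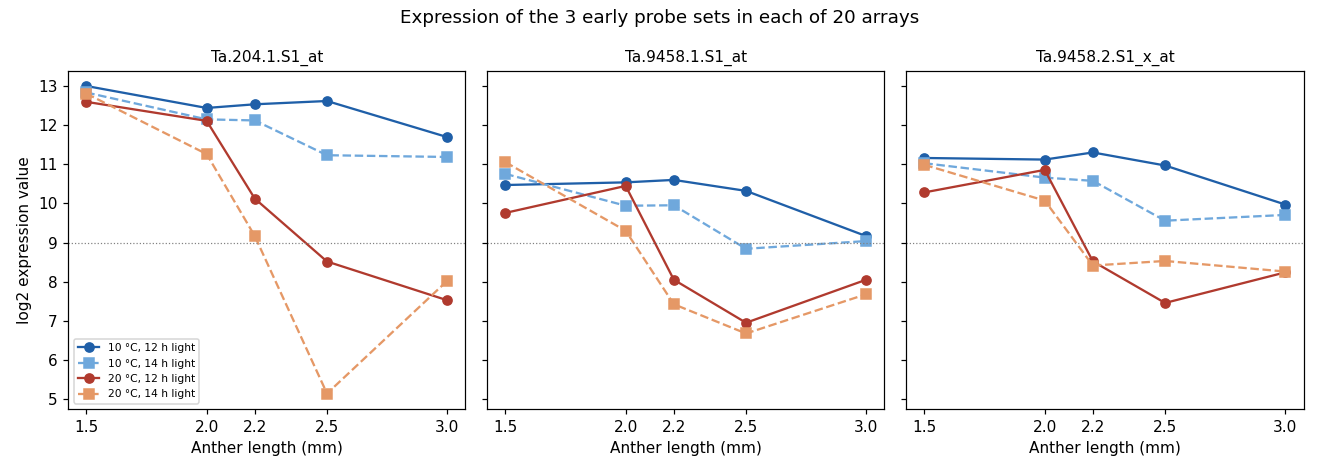
Log2 expression value (y axis) against anther length in mm (x axis) for the 3 probe sets, 1 panel each, with 1 point per array and lines joining the arrays of a condition. The red and orange control lines drop between 2.0 and 2.2 mm, as the rule required. The 6 late values of the blue cold lines stay above every late control value in each panel. The rule had held those control values low, and the share of all probe sets with such a gap was not counted. The dotted line marks the level of 9 used in the rule.

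Ranked by mean level, the 10 combinations of temperature and length split in the same place for each probe set. The rule itself placed the late control groups well below the early control groups, so this order is a description. The 3.0 mm cold anthers came seventh, below all early groups, and the next step down, to the first late control group, was the largest or second largest in the order: 1.79 for Ta.204.1.S1_at, 1.23 for Ta.9458.1.S1_at and 1.37 for Ta.9458.2.S1_x_at, each with no overlap between the arrays. Above that step the neighbours were close. For both Ta.9458 probe sets, each of the first 6 steps was between groups whose arrays overlapped. For Ta.204.1.S1_at, the 1.5 mm cold and control groups at the top were each separate from the next, and the groups from 2.2 mm cold down to 3.0 mm cold overlapped their neighbours in turn.

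Since the control arrays chose the members, the gap between cold and control is given as a description. At 1.5 and 2.0 mm the cold mean was 0.21 to 0.61 above the control mean across the 3 probe sets. At 2.2 mm it was 2.68 above for Ta.204.1.S1_at, 2.54 for Ta.9458.1.S1_at and 2.47 for Ta.9458.2.S1_x_at. At 3.0 mm the gap was 3.66 for Ta.204.1.S1_at and had narrowed to 1.23 and 1.59 for Ta.9458.1.S1_at and Ta.9458.2.S1_x_at. On the log2 scale, the fall of the 3.0 mm cold anthers was 45.7%, 55.1% and 55.4% of the control fall at 2.2 mm, in the same order of probe sets. That control fall was one the rule had asked for.

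Whether and when the cold anthers lost these transcripts was tested within the 10 cold arrays, which the rule had not used. Each late cold length was set against the mean of the 4 early cold arrays in limma with photoperiod as a term, over the 13805 probe sets that passed a filter on dim signals. All 3 members passed it, also on their cold arrays alone. Calls required an adjusted p (Benjamini-Hochberg) below 0.05 together with a log2 difference of 1 or larger.

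At 2.2 mm no loss was detectable in the cold. The changes were -0.28 ± 0.24 (SE) for Ta.204.1.S1_at, -0.15 ± 0.32 for Ta.9458.1.S1_at and -0.05 ± 0.25 for Ta.9458.2.S1_x_at, with an adjusted p of 1 in limma for each. Of all probe sets tested, 0% were called lower at this length, and 706 had an unadjusted p under 0.05. The A arrays of 2.2 mm were above the early cold mean for both Ta.9458 probe sets and the B arrays were below it.

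At 2.5 mm the means were lower and the photoperiods stood apart. The changes were -0.68 ± 0.24 for Ta.204.1.S1_at, -0.84 ± 0.32 for Ta.9458.1.S1_at and -0.73 ± 0.25 for Ta.9458.2.S1_x_at, each with an adjusted p of 0.279 in limma. None was called, with 0% of all probe sets called lower and 2437 at an unadjusted p under 0.05. The B array was 1.38, 1.48 and 1.41 below the A array in the same order of probe sets. The A value lay within the range of the 4 early cold arrays for all 3, and the B value below that range. The length thus rested on which array was read: the B array alone gave changes of -1.20, -1.45 and -1.23, and the A array alone gave -0.16, -0.24 and -0.22. A lone array was assumed to vary like those of the other lengths.

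At 3.0 mm 2 of the 3 were called lower. Ta.204.1.S1_at changed by -1.16 ± 0.24 (adjusted p = 0.0418 in limma) and Ta.9458.2.S1_x_at by -1.15 ± 0.25 (adjusted p = 0.0460). Ta.9458.1.S1_at, at -1.32 ± 0.32, missed the call with an adjusted p of 0.0566. Among all probe sets tested 1.72% were called lower, and 2.64%, 1.65% and 2.76% had a more negative change than Ta.204.1.S1_at, Ta.9458.1.S1_at and Ta.9458.2.S1_x_at. The median change of all probe sets was -0.11. Both calls rest on few arrays: each was lost on leaving out any 1 of the 8 cold arrays other than those of 2.5 mm. On leaving out 1 array, the change ran from -1.28 to -1.04 for Ta.204.1.S1_at. It ran from -1.57 to -1.08 for Ta.9458.1.S1_at and from -1.36 to -0.94 for Ta.9458.2.S1_x_at.

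**Figure D2:**
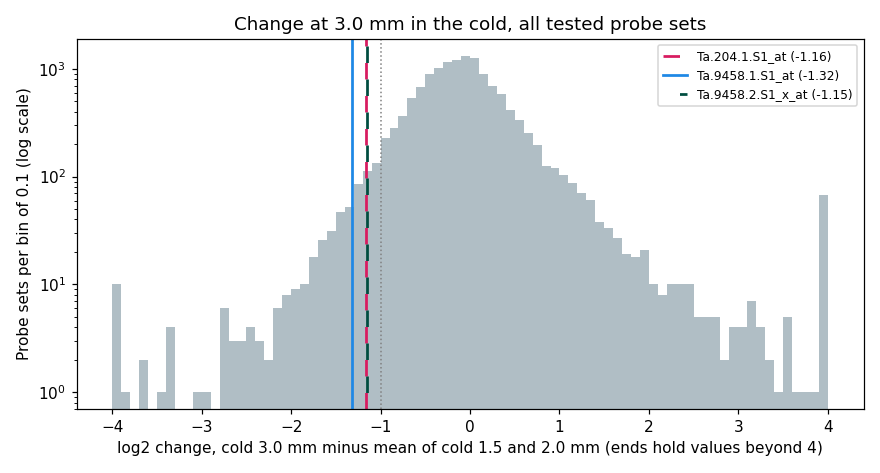
Number of probe sets (y axis, log scale) by log2 change at 3.0 mm against the early mean in the cold (x axis), over 13805 probe sets, with the 3 members as coloured lines and the limit of a call as a dotted line. The members lie at -1.16, -1.32 and -1.15, in the lower tail and short of a fall of 2.

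No late cold array reached the fall the rule asked of control anthers. The deepest cold values lay 1.42 below the early cold mean for Ta.204.1.S1_at, in B at 3.0 mm, and 1.58 and 1.43 below it for Ta.9458.1.S1_at and Ta.9458.2.S1_x_at, in B at 2.5 mm. A level of 9 or more was kept by 6 of 6 late cold arrays for Ta.204.1.S1_at and Ta.9458.2.S1_x_at, and by 5 of 6 for Ta.9458.1.S1_at. Applied to the cold arrays, the same rule found 0 probe sets, and it still found 0 when 3.0 mm alone was taken as late, against 311 in the control arrays with 3.0 mm alone.

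Longer days went with lower values in the cold, short of a call. Over the 5 lengths, 14 h minus 12 h of light was -0.55 ± 0.18 for Ta.204.1.S1_at (adjusted p = 0.150 in limma), -0.51 ± 0.24 for Ta.9458.1.S1_at (adjusted p = 0.225) and -0.60 ± 0.18 for Ta.9458.2.S1_x_at (adjusted p = 0.148). B was below A at each of the 5 lengths for Ta.204.1.S1_at and Ta.9458.2.S1_x_at, and at 4 of 5 for Ta.9458.1.S1_at. The share of all probe sets with B below A at as many lengths was not counted, so this shows no trait particular to the members. For photoperiod 0% of all probe sets were called lower, with 3468 at an unadjusted p under 0.05 in limma, 2048 of them lower. The extra 14 h difference in late over early cold anthers was -0.66 ± 0.26, -0.48 ± 0.47 and -0.40 ± 0.36 (adjusted p = 0.150, 0.519 and 0.485 in limma), and none of the 3 was called, where 3.56% of all probe sets were called more negative. The B arrays of 2.5 and 3.0 mm also had the lowest array medians, 6.19 and 6.14 against 6.28 to 6.46 in the others. After quantile normalization, which removes that shift, 14 h minus 12 h of light was -0.53, -0.47 and -0.57, and the extra late difference -0.71, -0.37 and -0.34. Without either one of the 2.5 mm arrays the photoperiod difference was -0.34, -0.27 and -0.40, and the extra late difference of Ta.204.1.S1_at was -0.22. Without either one of the 3.0 mm arrays the latter was -1.09, with an adjusted p of 0.0582 or more in limma.

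The rule had sharp edges. Inside it, the smallest falls were 2.07, 2.09 and 2.02 for Ta.204.1.S1_at, Ta.9458.1.S1_at and Ta.9458.2.S1_x_at, and the lowest early control values were 11.26, 9.30 and 10.07. Just outside the level were Ta.7207.1.A1_at, whose lowest early control value was under 9 by less than 0.001, Ta.9458.1.S1_x_at at 8.73 and Ta.30833.1.S1_at at 8.37. Just outside the fall were Ta.7729.1.S1_at at 1.96, TaAffx.60258.2.S1_s_at at 1.94 and Ta.23439.1.S1_at at 1.92. None of these 6 carried a gene symbol. Which probe sets entered also turned on single control arrays. Without the F array of 1.5 mm 0 probe sets met the rule, without the F array of 2.0 mm 13 did, and without the E array of 2.2 mm 11 did.

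These 6 were picked for control values close to the rule, so their larger control than cold fall is a description. At 3.0 mm in control anthers Ta.7207.1.A1_at lay 5.93 and Ta.7729.1.S1_at 5.99 below their early means, the latter from 10.54 at 1.5 mm to 4.10 at 3.0 mm. In the cold they lay 1.36 and 1.43 below. TaAffx.60258.2.S1_s_at had the smallest cold fall of the 6, 0.49 at 3.0 mm, and lay 6.96 below its early mean in control anthers at 2.5 mm. Ta.30833.1.S1_at had the largest, 1.72, with its B array 2.11 below.

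The further Ta.9458 probe sets differed in the last stage. Ta.9458.1.S1_x_at and Ta.9458.2.S1_at lay 2.89 and 2.01 below their early means in control anthers at 3.0 mm, and 1.60 and 1.25 below in the cold. Ta.9458.3.S1_x_at, another probe set that may bind other transcripts, measured 9.17 (E) and 8.81 (F) in control at 2.2 mm, 8.30 and 8.99 at 2.5 mm, and was back at 10.20 and 9.88 at 3.0 mm. There its cold arrays, 9.43 and 9.55, were below its control arrays.

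**Figure D3:**
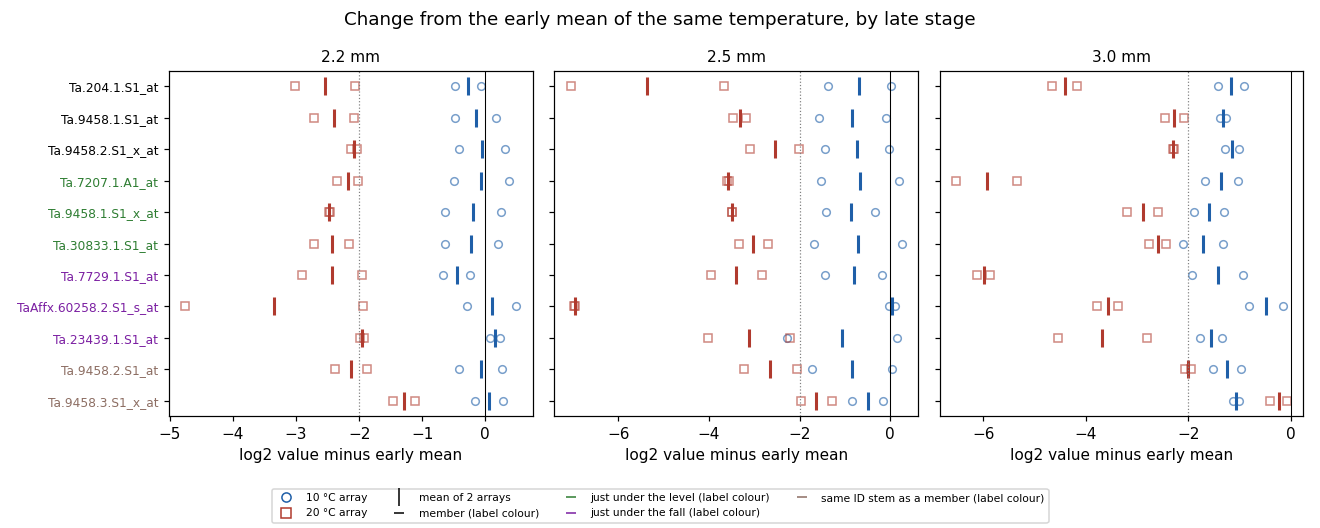
Log2 value minus the early mean of the same temperature (x axis) at 2.2, 2.5 and 3.0 mm, 1 panel each, for the 3 members and 8 probe sets near the rule's limits or of the same ID stem (y axis), with open symbols for arrays, bars for the mean of 2 arrays and a dotted line at -2. At 2.2 mm the cold means of the members lie at -0.28, -0.15 and -0.05 and the control means beyond -2, and at 3.0 mm Ta.9458.3.S1_x_at alone has its control mean above its cold mean.

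Over the 10 cold arrays, which share a stage series and 2 photoperiods, Pearson's r with Ta.204.1.S1_at was 0.95 for each Ta.9458 member, and 2.91% and 3.03% of the probe sets compared had an r as high as that of Ta.9458.1.S1_at and Ta.9458.2.S1_x_at. Between the Ta.9458 members it was 0.98. By a measure set after the values were seen, Pearson's r with the mean of the 3 centred members over 20 arrays, control arrays that chose the members included, the most similar probe sets of other stems were Ta.7893.1.S1_at (r = 0.98), Ta.30628.3.S1_x_at (LOC606332, r = 0.98) and Ta.30833.1.S1_at (r = 0.98). Ta.7893.1.S1_at moved over a smaller range, from 11.11 in early to 9.90 in 3.0 mm control anthers and from 11.36 to 10.78 in the cold.

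A wider group was obtained, after the 3 members were known, by asking for a fall of 1 in place of 2. It held 45 probe sets of 40 ID stems, of which LOC542836 and LOC542796 (Ta.14281.1.S1_at) were the annotated loci. The median control change at 2.2, 2.5 and 3.0 mm was -1.44, -2.28 and -2.58. In the cold it was -0.10, -0.61 and -1.02, against -0.0026, -0.06 and -0.11 in the 4295 probe sets outside the 45 with a level of 9 or more in early control. At 3.0 mm 10 of the 45 (22.2%) were at least 1 below their early mean in both cold arrays, against 8 of the 4295 (0.186%). At least 2 below in both were 0 of the 45, 0 of the 4295 and 51 of all 28894 probe sets, so this 0 was not particular to the 45. The cold change at 3.0 mm ran from -1.83 in Ta.14641.1.S1_at to 0.39 in Ta.7143.2.S1_x_at, which was above its early mean and had a control change of -3.68. These control values chose the group, so the smaller cold than control fall of 45 of 45 is a description.

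**Figure D4:**
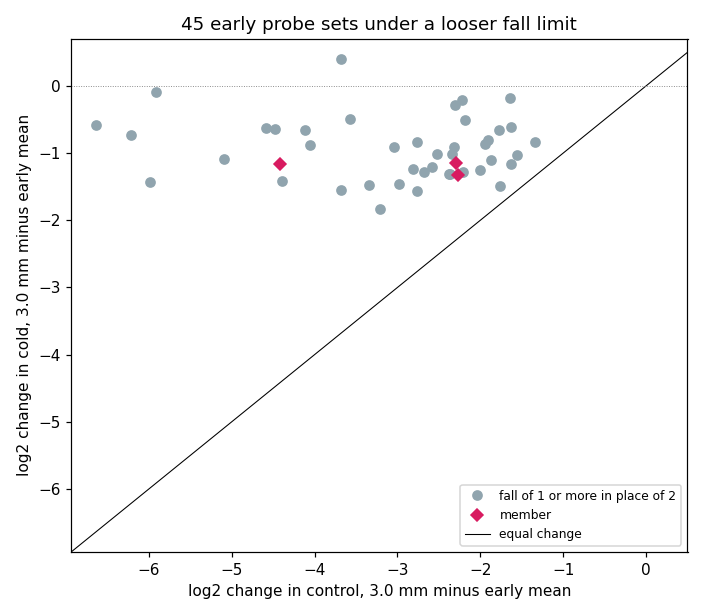
Log2 change at 3.0 mm against the early mean in the cold (y axis) and in control anthers (x axis), 1 point per probe set for the 45 with a control fall of at least 1, with the 3 members as diamonds. Each point lies above the line of equal change, with control changes down to -6.64 and cold changes between -1.83 and 0.39.

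Gene lists other than the auxin list were matched on symbols, which 845 of 28894 probe sets carry and the Ta.9458 members lack. Only Ta.204.1.S1_at could have matched one of these lists, and it did not. The auxin list was matched on the probe set IDs of the study's auxin genes, and it held 0 of the 3 members. Histone probe sets, which package newly made DNA in dividing cells, had a list mean of 11.18 to 11.55 in early control arrays and 8.08 to 10.65 in late ones, and 10.64 and 10.66 in the 3.0 mm cold arrays. Of 17 tested, 0 were called lower and 0 higher at 3.0 mm in the cold, with a median change of -0.80 against -0.11 for all probe sets. Tubulin probe sets, the subunits of microtubules, had 0 of 9 called and a median of -0.34. Of 16 tested probe sets of the study's auxin list 0 were called, with a median of 0.17, and the 1 tested translation probe set was not called.

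Markers of other anther cells were read in the same arrays, where 2.73% of all probe sets tested were called higher at 3.0 mm in the cold. The 4 probe sets of tapetal raftin genes were all called higher, and their mean was 9.26 to 11.21 in early and 12.03 to 12.62 in 3.0 mm cold arrays, and 12.70 to 13.52 in late control arrays. Of 3 late pollen markers 1 was called higher. Their list mean was 10.28 to 11.34 in early and 11.38 to 11.77 in 3.0 mm cold arrays, and 11.89 to 12.94 in late control arrays. Of 9 tested markers of the green anther wall 2 were called higher. The list mean over 16 probe sets was 6.65 to 7.34 in early and 7.58 to 7.72 in 3.0 mm cold arrays, and 8.05 to 8.76 in late control arrays. Of the 16, 2 were at the lowest value of the table in at least 1 array. The part of these values in the members' values was not tested. Words for meiocyte, cell cycle, floral MADS, other transcription factor, cold response and heat shock genes matched no symbol or synonym at its start. Full gene names were not searched and most probe sets carry no symbol, so such genes may be present unmatched. The 1 cell wall growth gene was too dim to be tested.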

How the data were processed

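The authors deposited 1 table of log2 values for 20 arrays, made with MAS5 per the submitters' processing notes. The scaling was not stated, and array medians ran from 6.14 to 6.46. Of 28895 entries, 1 reporter control was left out. Members were found by the rule on the control arrays, and the members and gene lists were chosen with earlier results of these data known. Tests used limma 3.58.1 in R 4.3.3 on the 10 cold arrays (length and photoperiod terms, 4 residual degrees of freedom, or 3 for the late photoperiod difference; moderated variance with trend), over 13805 probe sets whose signal exceeded the 60th percentile of the array in each array of some temperature and length. The procedure was tested on simulated data. P-values measure the spread between these arrays, which may be technical. Gene symbols came from the platform annotation (845 probe sets, 844 gene IDs matched to RefSeq). Lists were matched on symbols and synonyms, except the auxin list, which was matched on probe set IDs. With 3 members, the rule for naming genes takes in all of them, the 3 probe sets nearest outside each limit and the lists. Alternatives were another filter, scaling, variance model, sample set and call limit, and leaving out each array.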

Additional observations from a re-analysis of the deposited data

How the results depend on the processing

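The count of members called lower at 2.2 mm in the cold was 0 in 19 of 19 alternatives, and the counts for photoperiod and for the late photoperiod difference were 0 in 15 of 15 and 14 of 14. At 2.5 mm it was 0 in 18 of 19, the exception being without the A array of 2.5 mm, where that length rested on the B array alone. At 3.0 mm the count of 2 dropped to 0 without the filter on dim probe sets, without the variance trend, without the photoperiod term, with all 20 arrays in the fit, and where a fall of 2 was asked. Leaving out any 1 array other than those of 2.5 mm also gave 0. Quantile normalization and the adjusted p alone kept 2, and values raised to the 40th percentile gave 3. The share of all probe sets called was found for the main fit only, so the counts under the alternatives show no trait particular to the members. In the main fit 0% of all probe sets were called lower at 2.2 mm, at 2.5 mm and for photoperiod. The direction at 2.5 and 3.0 mm held for the 3 members in all alternatives run. At 2.2 mm, leaving out 1 array moved the change from -0.40 to 0.10 in Ta.9458.1.S1_at and from -0.20 to 0.093 in Ta.9458.2.S1_x_at, positive without the B array of 1.5 mm in both and without the B array of 2.2 mm in the latter. On leaving out 1 array, the late photoperiod difference of Ta.204.1.S1_at ran from -1.09 to -0.22 and that of the Ta.9458 members from -1.16 to 0.20 and from -0.97 to 0.18, the latter members positive on leaving out the A or the B array of 2.5 mm. The cause was not tested.

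By alternatives chosen after seeing the data, 45 probe sets met the rule with a fall of 1 and 6 with a level of 8, and 4 after quantile normalization. A fall of 3, planned earlier, left 0, so no test could be given for it. Leaving out 1 control array gave 0 to 13. Of the 3 members, 2 were kept without the E array of 1.5 mm, 1 without the E array of 2.0 mm and 0 without the F array of 1.5 mm, and the other 7 omissions kept all 3. The labels give no replicate numbers. The photoperiod term matched the A and B series across lengths, and without it the count at 3.0 mm was 0 as above. The number of arrays limits the precision.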
